A study of Mus musculus with 36 samples.

Results

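The leucine-rich repeat receptors Lgr4, Lgr5 and Lgr6, the secreted R-spondins Rspo1, Rspo2 and Rspo3, the ubiquitin ligases Znrf3 and Rnf43 and the intracellular inhibitors Axin2 and Nkd1 were followed through 7 groups of mouse tissue. These 10 genes were matched by symbol among 53379 gene IDs in the count tables, and 10 of 10 were found. The list was put together with earlier results of these data known, and Lgr6 was among genes selected on their difference between retro-orbital tumors and tumors at other sites, so values from those comparisons are given as a description without a test.

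Wnt proteins bind Frizzled receptors and their Lrp5 or Lrp6 co-receptors, which spares beta-catenin from destruction and lets it act with TCF/LEF factors on target genes. Znrf3 and Rnf43 remove Frizzled receptors from the cell surface, and R-spondins bound to an Lgr receptor clear these ligases and so raise the response to Wnt. Axin2, Nkd1, Znrf3 and Rnf43 are themselves Wnt targets in many tissues and act as negative feedback, and Lgr5 and Lgr6 mark stem or progenitor cells in several epithelia, Lgr6 among them in skin.

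In the adult model, 6 mice carried Sglt2-Cre and the ASPSCR1-TFE3 LSL/+ allele, in which a stop cassette flanked by LoxP sites keeps the fusion gene silent until Cre removes it. From these animals came 11 kidney tumor libraries of 6 mice, 4 retro-orbital tumors, 3 brain tumors and 4 kidney samples labelled as non-transformed, and 6 libraries came from the kidneys of 3 Sglt2-Cre control mice without the fusion allele. The fetal model held kidneys of 5 dysmorphic fetuses with Pax8-Cre and ASPSCR1-TFE3 LSL/+ and of 3 age-matched control fetuses, which the labels give as Pax8-Cre and the design text as carrying either allele alone. Sglt2 and Pax8 promoters both drive Cre in the kidney lineage, no treatment was given, and ages in days or weeks were not given in the sources used here. All tissue was fixed in formalin and embedded in paraffin. Libraries of the same animal and group were summed, which left 28 samples, and levels are given as CPM (a count scaled to the library's size) with TMM library size factors. Where a mouse had separate kidney tumor libraries, a kidney tumor below is their sum unless a library is named.

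Library totals ran from 80205573 to 121415057 counts. Gpnmb, a transcriptional target of MiT/TFE factors and used here as the check of the fusion, was at 1.54 to 2.47 CPM in control kidneys, 111 to 447 CPM in non-transformed kidneys, and 2826 CPM or more in every tumor. In the fetal model it was at 0.442 to 6.49 CPM in controls and 15.2 to 553 CPM in dysmorphic fetuses, a log2 difference of 5.29 that did not pass (edgeR adjusted p = 0.110). The labelled tissues were compared with marker genes. Nphs1, which encodes a slit diaphragm protein of podocytes, was at 0.147 CPM in control fetus 3, against 7.16 CPM or more in control fetuses 1 and 2. In dysmorphic fetuses Nphs1 was at 0.0895 to 1.96 CPM, while skeletal muscle markers summed to between 2523 and 5841 CPM and epidermal keratins (Krt5, Krt14 and Krt10) to between 776 and 2502 CPM. The podocyte list as a whole summed to 224, 153 and 115 CPM in control fetuses 1, 2 and 3 and to 30.4 to 80.4 CPM in dysmorphic fetuses, and nephron progenitor markers to 7.19 to 140 CPM and 27.3 to 128 CPM. Distal nephron markers were at 2.37 CPM in control fetus 3, against 691 and 209 CPM in the other control fetuses, and at 1.85 to 51.5 CPM in dysmorphic fetuses. The labels call these samples kidney and that name is kept, but how much other tissue each section held was not given in the sources used here. Fetal values are therefore those of the tissue sampled, and cannot be assigned to kidney alone. Pigment cell markers summed to 221 CPM in the kidney tumor of mouse 4, 103 CPM in the retro-orbital tumor of mouse 5, 498 and 863 CPM in the brain tumors of mice 2 and 4, and 2.31 CPM or less in the other tumors.

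3 members around which the results turn have a promoter window in RefSeq (GRCm38.p6), 250 bases before to 50 bases after the start site, and are shown 5′ to 3′ on the gene's strand. Capitals mark CCAAT boxes (CCAAT) and GC boxes (GGGCGG) found on either strand.
Axin2, chr11:108920099-108920398, plus strand: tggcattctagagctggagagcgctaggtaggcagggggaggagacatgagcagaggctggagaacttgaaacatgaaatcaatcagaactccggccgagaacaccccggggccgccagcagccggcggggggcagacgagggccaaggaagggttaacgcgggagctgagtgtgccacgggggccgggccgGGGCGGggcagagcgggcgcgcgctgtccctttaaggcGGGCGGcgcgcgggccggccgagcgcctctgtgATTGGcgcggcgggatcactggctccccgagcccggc
Lgr4, chr2:109917397-109917696, plus strand: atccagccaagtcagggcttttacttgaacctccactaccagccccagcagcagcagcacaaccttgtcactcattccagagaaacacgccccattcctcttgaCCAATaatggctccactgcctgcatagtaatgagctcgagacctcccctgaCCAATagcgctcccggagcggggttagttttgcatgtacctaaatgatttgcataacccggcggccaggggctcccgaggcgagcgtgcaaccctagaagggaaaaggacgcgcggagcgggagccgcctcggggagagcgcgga
Lgr6, chr1:135105227-135105526, minus strand: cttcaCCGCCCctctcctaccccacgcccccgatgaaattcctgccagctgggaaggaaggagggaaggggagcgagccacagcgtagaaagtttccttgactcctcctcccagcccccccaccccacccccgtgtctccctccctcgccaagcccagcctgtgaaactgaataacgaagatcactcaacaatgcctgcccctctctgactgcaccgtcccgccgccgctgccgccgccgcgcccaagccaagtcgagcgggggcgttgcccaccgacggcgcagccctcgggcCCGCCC

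The window of Axin2 held 2 GC boxes and 1 CCAAT box, that of Lgr4 2 CCAAT boxes, and that of Lgr6 2 GC boxes, with no overlap among them. CCAAT boxes are in 37.4% and GC boxes in 35.7% of the 32851 windows of this length. The TCF/LEF letters CTTTGAA, the variant CTTTGAT, the variant CTTTGTA and the variant CTTTGTT were searched on both strands, with the E-box bound by MiT/TFE factors (CACGTG) and the core of the M-box (CATGTG). None of the 7 windows available for 6 members (Lgr4, Lgr6, Rspo1, Rnf43, Axin2 and Nkd1) held any of these, against 16.9%, 7.15% and 14.2% of all windows. These letters are absent from the windows only, and nothing follows for sites elsewhere. Lgr5, Rspo2, Rspo3 and Znrf3 had no entry.

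Lgr4 was by far the most abundant member per length. Its level per kilobase of exon was 98.6 ± 12 CPM (SD, n = 3) in control kidneys, where Znrf3 came next at 3.08 ± 0.090 CPM per kilobase and Rspo2 was lowest at 0.00112 CPM per kilobase. Lgr4 ranked first on this scale in 7 of 7 groups. The gene in second place changed with the tissue. It was Lgr6 in retro-orbital tumors, at 8.05 ± 3.0 CPM per kilobase (SD, n = 4), Rspo3 in kidney tumors and dysmorphic fetal kidneys, and Nkd1 in brain tumors and control fetal kidneys. In brain tumors this rested on mouse 1, without which Nkd1 was at 0.935, Axin2 at 5.06 and Rspo3 at 5.58 CPM per kilobase (n = 2). Over the 7 groups, 3 members had their highest mean level in a tumor group: Lgr6 and Rnf43 in retro-orbital tumors and Nkd1 in brain tumors. The other 7 were highest in control, non-transformed or fetal kidney. Without mouse 1 the count was 2, as Nkd1 was then highest in control fetal kidneys, and without dysmorphic fetus 4 it was 4, as Axin2 was then highest in brain tumors.

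**Figure D1:**
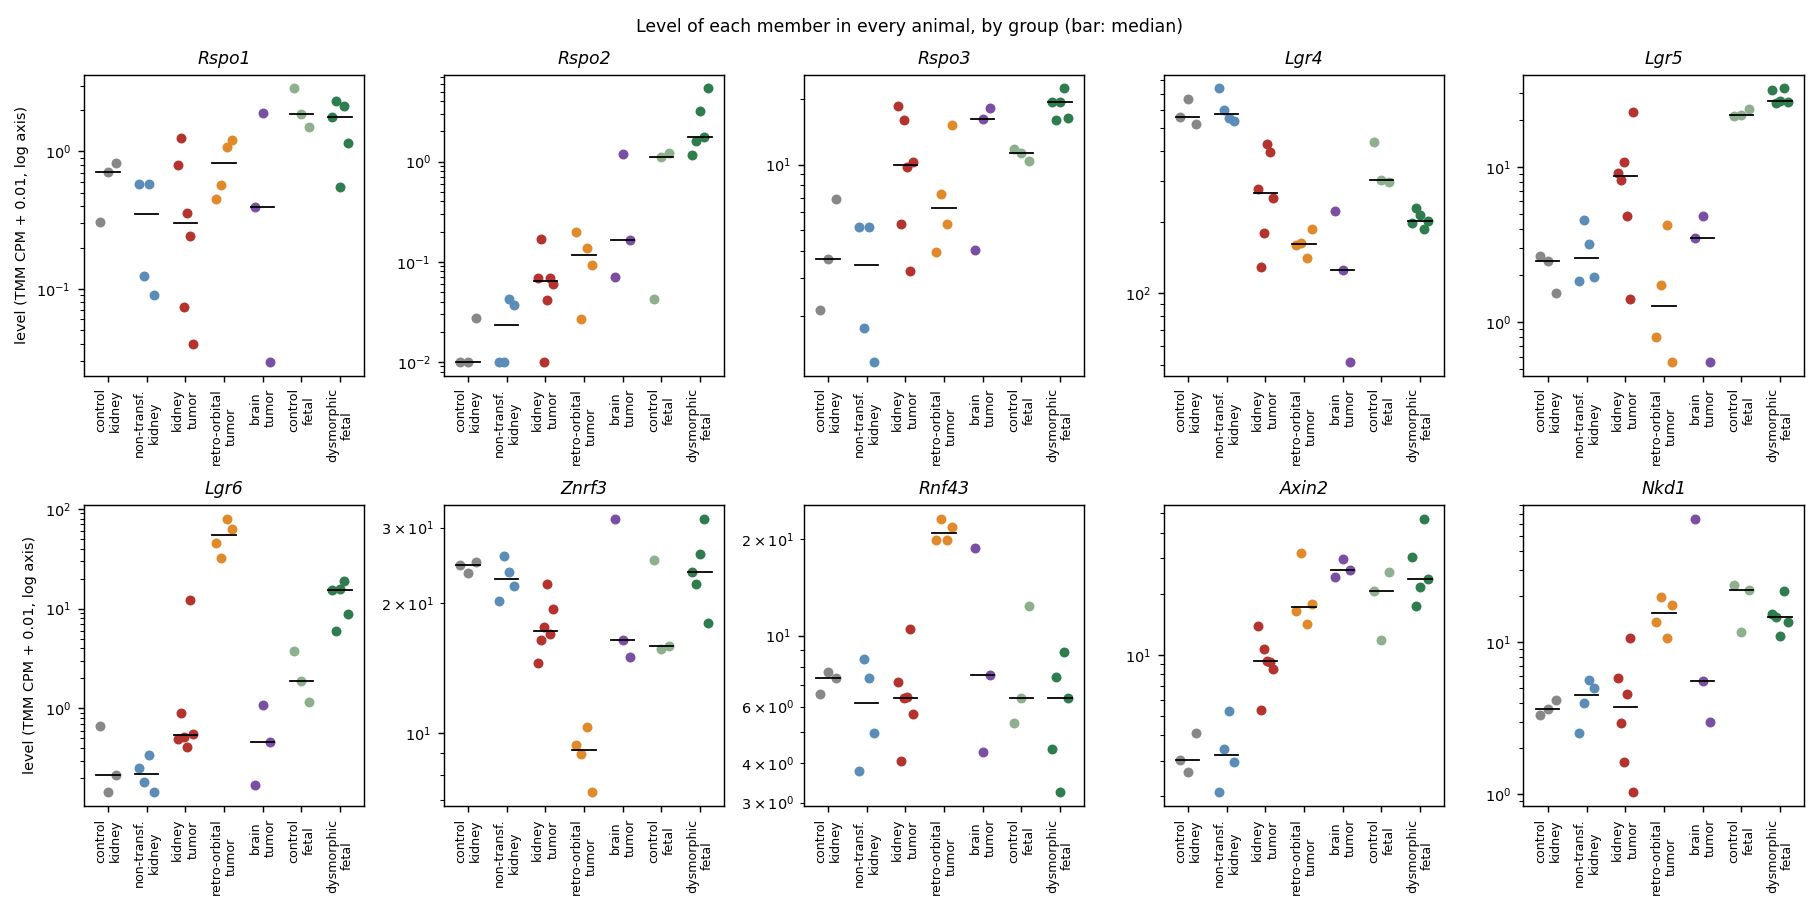
Level of each of the 10 members in every animal, as TMM CPM plus 0.01 on a log axis, in 7 groups on the horizontal axis. Each point is 1 animal and the black bar is the group's median. Lgr6 and Rnf43 stood highest in the 4 retro-orbital tumors, at 31.9 to 80.01 CPM and 19.9 to 23.3 CPM, and Znrf3 lowest there, at 7.28 to 10.3 CPM.

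Kidney tumors were compared with kidneys of Sglt2-Cre control mice, to ask what differs in tumors from the normal organ. Axin2 rose in the tumors and was the 1 member that passed the test, while Lgr4 and Znrf3 were below every control without passing it. Axin2, a scaffold of the beta-catenin destruction complex, was at 3.02, 2.62 and 4.08 CPM in control mice 1, 2 and 3. In the 6 mice with tumors its lowest, median and highest levels were 5.34, 9.26 and 13.9 CPM. Each summed tumor sample exceeded each control kidney. Before summing, 1 tumor library of mouse 2 was at 3.98 CPM, below control mouse 3. The log2 fold change was 1.53 (SE 0.31, edgeR adjusted p = 0.0121), a fold of 2.89. This was 1 of 10 members tested, or 1 higher and 0 lower, where 19% of all genes tested were called, 12.5% higher and 6.51% lower. Without control mouse 1 the adjusted p by edgeR for Axin2 was 0.0514, and without control mouse 2 it was 0.0685.

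The receptors took different courses in the kidney tumors. Lgr4, the most widely expressed of the R-spondin receptors, was at 557, 662 and 523 CPM in controls and at 129, 265 and 428 CPM (lowest, median and highest) in tumors, so that the groups did not overlap. Its log2 fold change was -1.09 (SE 0.34, edgeR adjusted p = 0.0502). The call lay at the threshold, since 7 of 8 other settings put it below 0.05, among them RLE factors (edgeR adjusted p = 0.0452), as did leaving out mouse 4 (0.0299) or mouse 5 (0.0354). These were 2 of 9 fits without 1 animal, and in the others the edgeR adjusted p reached 0.181. Mice 4 and 5 had the highest Lgr4 of the tumors, 428 and 395 CPM, and also the highest proximal tubule markers (Lrp2, Slc34a1, Slc5a2 and Slc5a12), summed to 5963 and 5403 CPM against 585 to 1852 CPM in the other 4 mice and 8078 to 8966 CPM in controls. Other cell types moved as well. Fibroblast markers summed to 843 to 1933 CPM in tumors and 281 to 507 CPM in controls (2 of 5 called higher, Col1a1 and Col1a2), macrophage markers to 135 to 335 CPM and 84.9 to 111 CPM (1 of 3, Cd68), and nephron progenitor markers to 4.77 to 358 CPM and 1.71 to 2.88 CPM (2 of 2 tested, Cited1 and Eya1). Smooth muscle and pericyte markers summed to 259 to 706 CPM and 329 to 423 CPM, with overlap (2 of 5 called higher, Rgs5 and Pdgfrb), and glia markers to 26.5 to 85.7 CPM and 25.8 to 40.3 CPM, also with overlap (1 of 4 tested, Mbp). No other marker list had a call in this comparison. Podocyte markers summed to 32.7 to 181 CPM in tumors and 241 to 296 CPM in controls, with no overlap, and distal nephron markers to 17.5 to 5344 CPM and 4662 to 5721 CPM, with mice 4 and 5 highest among the tumors. The part of these markers in the members' values was not tested, and in bulk tissue fewer cells of a type and less RNA per cell cannot be told apart.

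Lgr5, a Wnt target and stem cell marker, was at 2.65, 2.48 and 1.54 CPM in the control kidneys. In tumors its lowest, median and highest levels were 1.39, 8.67 and 22.6 CPM, and 5 of 6 tumor samples lay above every control, the exception being mouse 5. The log2 fold change of 2.08 (SE 0.73) did not pass (edgeR adjusted p = 0.0745), and without mouse 5 it was 2.32 (edgeR adjusted p = 0.0153). Lgr6 was at 0.654, 0.135 and 0.205 CPM in controls and between 0.405 and 0.894 CPM in 5 tumor samples, with mouse 5 apart at 12.2 CPM. The fitted log2 difference was 2.91 (SE 1.44, edgeR adjusted p = 0.176), and without mouse 5 it was 0.77. Skin markers summed to 5.76 CPM in the tumor of mouse 5, to 1.54 to 12.7 CPM over all kidney tumors (median 2.11 CPM) and to 2.93 to 6.10 CPM in control kidneys. The part of skin in the Lgr6 of mouse 5 was not tested.

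The R-spondins and ligases did not pass. Rspo3, an activator of Lgr receptors that stroma and endothelium often supply, was at 2.11, 3.65 and 6.93 CPM in controls and at 3.20, 9.99 and 18.7 CPM (lowest, median and highest) in tumors, and the fitted log2 fold change was 1.30 (SE 0.60, edgeR adjusted p = 0.151). The groups overlapped. Rspo1 overlapped too, with 0.296 to 0.813 CPM in controls and 0.0300 to 1.23 CPM in tumors. Rspo2 rested on 4 counts over the controls, at or near the floor of 3 counts, and 68 over the tumors, a difference that did not pass (edgeR adjusted p = 0.128). Znrf3 was at 24.6, 23.5 and 24.9 CPM in controls and at 14.5, 17.3 and 22.2 CPM (lowest, median and highest) in tumors, with no overlap and a log2 difference of -0.47 (SE 0.15, edgeR adjusted p = 0.0567). It passed under 4 of 8 other settings, with upper quartile factors (edgeR adjusted p = 0.0467), halved counts (0.0466), DESeq2 (0.0129) or every library as its own sample (0.00900), and in 1 of 9 fits without 1 animal, that without mouse 4 (0.0352). Rnf43, its paralog, was at 6.57 to 7.70 CPM in controls and 4.05 to 10.5 CPM in tumors. Nkd1, which binds Dishevelled, spread from 1.02 to 10.6 CPM in tumors around controls at 3.28 to 4.12 CPM.

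Of 77 other genes of the Wnt pathway, 66 were tested and 13 were called in kidney tumors against control kidneys, a share of 19.7% beside 19% of all genes. Among ligands 2 of 12 tested rose, Wnt5a by 1.34 on the log2 scale and Wnt9a by 1.68 (edgeR adjusted p = 0.00853 and 0.0216), and none fell. Among receptors 0 of 15 rose and 2 fell, Fzd4 (log2 fold change -1.27) and the co-receptor Lrp6 (-0.80). The other Wnt target genes rose in 4 of 9 tested: Ccnd1, which encodes cyclin D1 (2.09), the adhesion receptor Cd44 (4.47), Nkd2 (2.27) and the matricellular Ccn4 (2.01). Dkk3 was the 1 of 10 secreted inhibitors that rose, Dvl2 rose and Axin1 and Dvl1 fell among 12 beta-catenin regulators, and Pygo1 rose among 8 TCF/LEF factors and coactivators. Without control mouse 1, 2 or 3 the count of 13 was 5, 3 and 5, in fits that called 8.55%, 4.78% and 4.96% of all genes. The median log2 fold change of the 10 members was 0.77, and that of all genes tested was 0.05.

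The same tumors were compared with kidney labelled as non-transformed from mice that carried the fusion. Rspo2 was too low to be tested here. Axin2 rose and Lgr4 fell, which made 2 of 9 members tested, 1 higher and 1 lower, against 17.1% of all genes, 12.1% higher and 5.02% lower. Axin2 was at 2.09, 3.42, 5.29 and 2.94 CPM in the non-transformed kidneys of mice 1, 3, 4 and 5, all below the lowest summed tumor value of 5.34 CPM. The lower tumor library of mouse 2, at 3.98 CPM before summing, lay below the non-transformed kidney of mouse 4. The log2 difference of Axin2 was 1.41 (SE 0.32, edgeR adjusted p = 0.0166). Lgr4 was at 738, 598, 553 and 537 CPM in those kidneys, above every tumor, at a log2 difference of -1.18 (SE 0.31, edgeR adjusted p = 0.0272). Axin2 was higher in the tumor of 4 of 4 mice with both tissues, and Lgr4 was lower in 4 of 4. With the mouse as a block, which pairs the 2 tissues, the log2 differences were 1.65 for Axin2 and -1.04 for Lgr4 and neither passed (edgeR adjusted p = 0.0779 and 0.121), in a fit that called 847 of 20575 genes against 3755 without the block. Both were also lost without mouse 1 or mouse 3, Axin2 without mouse 5 (0.0530) and Lgr4 without mouse 6 (0.0512).

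Cell type markers moved in this comparison too. Called higher were 2 of 5 fibroblast markers (843 to 1933 CPM in sum in tumors, 367 to 713 CPM in non-transformed kidneys), 2 of 3 macrophage markers (135 to 335 CPM, 46.6 to 128 CPM) and 2 of 2 tested nephron progenitor markers (4.77 to 358 CPM, 2.46 to 6.00 CPM). So were 1 of 5 smooth muscle and pericyte markers (Pdgfrb), 1 of 4 endothelial markers (Cdh5) and 1 of 4 tested glia markers (Mbp), whose sums overlapped between the tissues. The podocyte list, with 1 of 3 called lower (Podxl), summed to 32.7 to 181 CPM in tumors and 209 to 301 CPM in non-transformed kidneys. Proximal tubule markers, with 0 of 4 called, summed to 585 to 5963 CPM and 7964 to 10081 CPM. Their part in the values of Axin2 and Lgr4 was not tested.

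Lgr6 in the non-transformed kidneys was at 0.245, 0.172, 0.328 and 0.135 CPM, below every summed tumor sample. It had no call (log2 fold change 3.47, SE 1.24, edgeR adjusted p = 0.0782), and without mouse 5 the value was 1.12 (edgeR adjusted p = 0.0889). Before summing, the lower tumor libraries of mice 1 and 4 were at 0.151 and 0.284 CPM, below their own non-transformed kidneys. Rspo3 was at 5.13, 1.74, 5.15 and 1.21 CPM and higher in the tumor of 4 of 4 mice, and Znrf3 was at 20.2, 25.7, 23.7 and 21.9 CPM and lower in the tumor of 4 of 4 mice, and neither passed (edgeR adjusted p = 0.0847 and 0.0730). Lgr5 was at 1.83, 4.56, 3.18 and 1.94 CPM and gave an adjusted p of 0.0979 by edgeR. Rspo1, Rnf43 and Nkd1 had log2 fold changes of 0.39, 0.07 and 0.01, smaller than their standard errors. Of the 65 other pathway genes tested 12 were called (18.5%, beside 17.1% of all genes), 9 higher and 3 lower, Ctnnb1 (0.68) and Fzd8 (1.10) among those higher. This was 3 with the mouse as a block, when 4.12% of all genes were called.

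Between non-transformed kidneys and control kidneys none of the 9 members tested passed by edgeR, nor did any under 7 other settings, DESeq2 included, and 7 fits without 1 animal. The fold changes ran from -0.84 for Rspo1 to 0.38 for Lgr5 on the log2 scale, and 0 members had an unadjusted p under 0.05. In the same comparison 2 of 21019 genes were called, 0.00952%. Gpnmb was 1 of these, and it was raised in tissue where no difference in the members was detected.

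**Figure D2:**
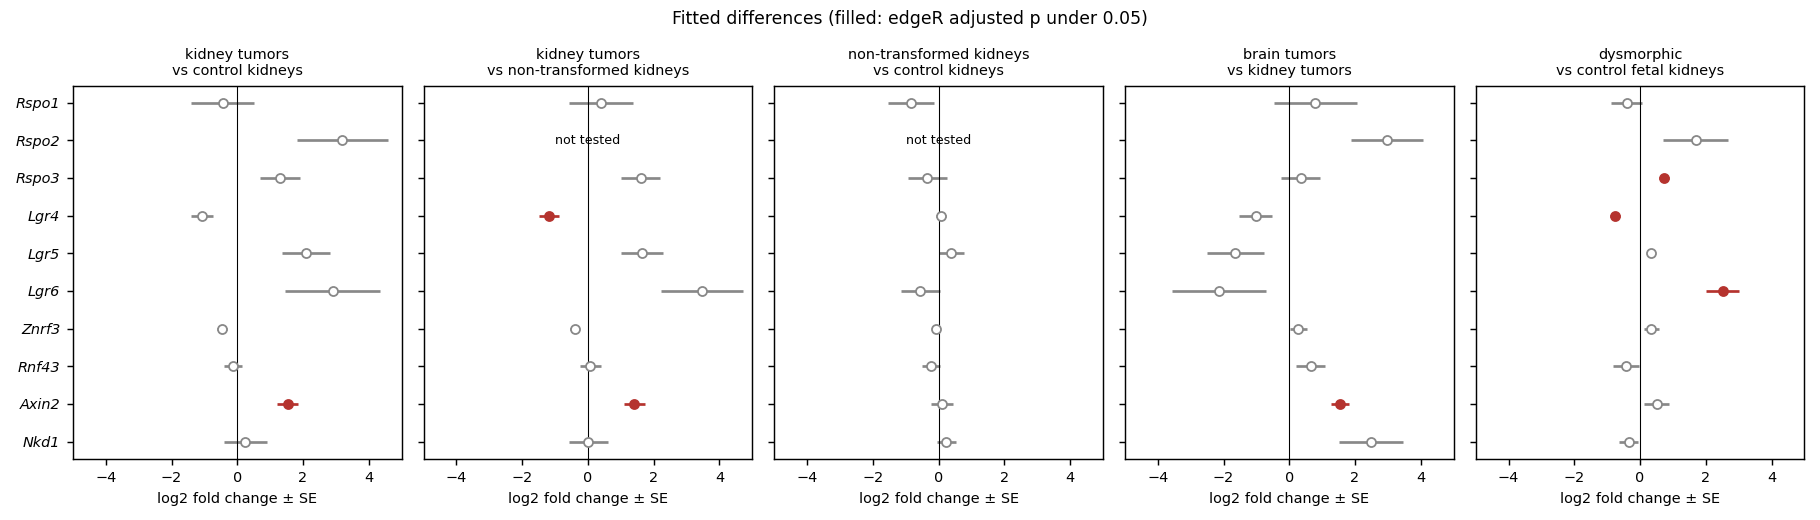
Fitted log2 fold change with its standard error for each member (rows) in 5 comparisons (panels), first group over second. Filled red points passed an edgeR adjusted p of 0.05, with Axin2 among them in 3 panels and Lgr4 in 2, and Rspo2 was not tested where so marked.

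Separate tumors of the same mouse differed by a larger median fold in Lgr5 than in the other members that could be measured in all 5 mice with 2 kidney tumor libraries. The higher library exceeded the lower by 2.41-fold to 9.08-fold, with a median of 4.39-fold. In mouse 2 the values were 1.61 and 14.6 CPM, and in mouse 6 they were 7.55 and 35.9 CPM. The 2 libraries of each control mouse differed in Lgr5 by 1.36-fold to 1.72-fold. Lgr4 differed between tumors of a mouse by 1.04-fold to 1.46-fold, Znrf3 by 1.04-fold to 1.47-fold and Axin2 by 1.01-fold to 3.79-fold, the last in mouse 1. These folds describe pairs of libraries and were not tested.

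**Figure D3:**
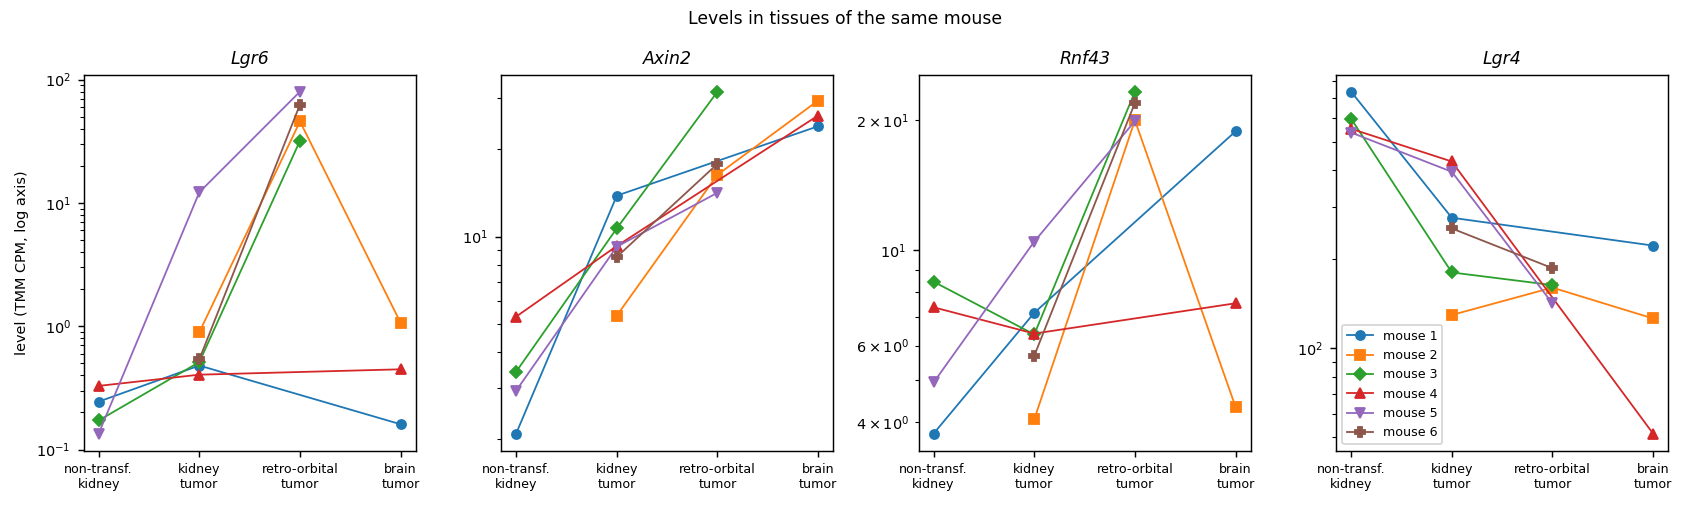
Levels of Lgr6, Axin2, Rnf43 and Lgr4 (TMM CPM, log axis) in up to 4 tissues of the same mouse, 1 line and symbol per mouse. Lgr6 and Rnf43 were higher in the retro-orbital tumor than in the kidney tumor in 4 of 4 mice, and Axin2 was higher in the brain tumor than in the kidney tumor in 3 of 3.

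Tumors behind the eye were set beside kidney tumors as a description, since members were chosen with this contrast in view. Lgr6 was at 45.8, 31.9, 80.01 and 62.9 CPM in the retro-orbital tumors of mice 2, 3, 5 and 6, whose kidney tumors held 0.894, 0.512, 12.2 and 0.539 CPM. The retro-orbital value was higher in 4 of 4 mice and the groups did not overlap. The fitted log2 difference was 4.43, and 6.40 without mouse 5. Upper quartile factors shifted the median of all genes by 0.112 in this contrast, and no member changed sign. Rnf43 was at 19.96, 23.3, 19.9 and 21.9 CPM, a narrow band above the highest kidney tumor at 10.5 CPM (log2 difference 1.64). Znrf3, the other ligase, moved the opposite way, with 9.36, 8.92, 10.3 and 7.28 CPM, below the lowest kidney tumor at 14.5 CPM (-1.01).

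Axin2 in retro-orbital tumors was at 16.4, 31.7, 14.2 and 17.8 CPM, and Nkd1 was at 13.7, 19.8, 10.7 and 17.4 CPM. Both lay above every summed kidney tumor sample, with log2 differences of 1.05 and 1.77. Before summing, Axin2 was at 21.3 CPM in 1 kidney tumor library of mouse 1. This was above the 16.4, 14.2 and 17.8 CPM of the retro-orbital tumors of mice 2, 5 and 6. In all 5 of 10 members had no overlap between the summed samples, where 16.1% of all genes had none, a share that the choice of members used. Lgr5 was at 0.798, 1.73, 4.20 and 0.548 CPM, near adult normal kidney, and overlapped the kidney tumors (-2.40). Lgr4 at 160, 163, 142 and 186 CPM, Rspo3 at 3.94, 7.27, 5.31 and 15.2 CPM, Rspo1 at 0.441 to 1.20 CPM and Rspo2 at 0.0170 to 0.189 CPM overlapped them as well.

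Other cell types moved with the site. Endothelial markers summed to 742 to 1048 CPM in retro-orbital and 240 to 540 CPM in kidney tumors, and smooth muscle and pericyte markers to 775 to 816 CPM against 259 to 706 CPM. Fibroblast markers summed to 1597 to 3005 CPM against 843 to 1933 CPM. Proximal tubule markers were at 71.5, 159, 826 and 109 CPM in the retro-orbital tumors of mice 2, 3, 5 and 6 against 585 to 5963 CPM in kidney tumors. Distal nephron markers summed to 6.44 to 485 CPM against 17.5 to 5344 CPM and nephron progenitor markers to 3.58 to 12.7 CPM against 4.77 to 358 CPM. All but the endothelial and smooth muscle sums overlapped between the sites. The part of these cell types in the members' values was not tested. The epidermal keratins summed to 1.06, 1.11 and 2.12 CPM in the retro-orbital tumors of mice 2, 3 and 6, in which Lgr6 was at 45.8, 31.9 and 62.9 CPM. In mouse 5 they summed to 41.5 CPM.

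Brain tumors were compared with kidney tumors. Axin2 rose in brain tumors and passed the test, 1 of 10 members, where 8.74% of all genes were called, 4.54% higher and 4.2% lower. It was at 24.1, 29.5 and 26.2 CPM in mice 1, 2 and 4, above every kidney tumor, and higher than the kidney tumor of the same mouse in 3 of 3 (log2 fold change 1.53, SE 0.27, edgeR adjusted p = 0.0160). With the mouse as a block the value was 1.59 (edgeR adjusted p = 0.328), when 0 of 21827 genes were called and 2870 had an unadjusted p under 0.05. Without mouse 2 or mouse 4 the adjusted p was 0.0534 and 0.0510 by edgeR.

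The brain tumor of mouse 1 stood apart from the other 2 in several feedback genes. Nkd1 was at 65.2 CPM there and at 5.56 and 2.96 CPM in mice 2 and 4, Rnf43 at 18.8 CPM against 4.33 and 7.52 CPM, and Znrf3 at 31.3 CPM against 16.4 and 15.0 CPM. None of these passed (edgeR adjusted p = 0.130 for Nkd1, 0.393 for Rnf43 and 0.547 for Znrf3). Lgr4 was at 222, 126 and 51.3 CPM and lower than in the kidney tumor of the same mouse in 3 of 3 (log2 fold change -1.02, SE 0.51, edgeR adjusted p = 0.220). Lgr5 was at 3.46, 4.78 and 0.545 CPM, lower in 3 of 3 mice (adjusted p = 0.256 by edgeR), and Lgr6 was at 0.160, 1.07 and 0.448 CPM.

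The R-spondins followed individual brain tumors. Rspo2 was at 0.0601, 1.18 and 0.156 CPM and Rspo1 at 0.381, 1.88 and 0.0195 CPM, with mouse 2 highest for both. Rspo3 was at 4.01, 16.3 and 18.2 CPM, with mouse 1 lowest. None passed (edgeR adjusted p from 0.113 to 0.759). Rspo4, the other R-spondin of the family, had 42 counts in 1 brain tumor and none in the other adult samples. Neuron markers summed to 101, 716 and 93.2 CPM in the 3 brain tumors against 0.570 to 26.4 CPM in kidney tumors, and glia markers to 33.3, 1017 and 366 CPM against 26.5 to 85.7 CPM. Among neuron and glia markers 1 of 4 (Rbfox3) and 1 of 5 (Mbp) rose. Called lower in brain tumors were 2 of 5 fibroblast markers (Col1a1 and Col1a2; 485 to 2148 CPM in sum against 843 to 1933 CPM), 1 of 5 smooth muscle and pericyte markers (Pdgfrb; 122 to 258.7 CPM against 258.8 to 706 CPM, with no overlap) and 1 of 4 endothelial markers (Pecam1; 160 to 1160 CPM against 240 to 540 CPM). Nephron progenitor markers had no call and summed to 702, 240 and 26.2 CPM in the brain tumors of mice 1, 2 and 4, highest in mouse 1, against 4.77 to 358 CPM in kidney tumors. The other kidney cell markers had no call either, with sums of 249.2 to 708 CPM against 585 to 5963 CPM for proximal tubule, 17.7 to 88.9 CPM against 17.5 to 5344 CPM for distal nephron, and 15.4 to 35.9 CPM against 32.7 to 181 CPM for podocytes. Glia markers were in the kidney tumor range in mouse 1, with the highest Nkd1, and highest in mouse 2, with the highest Rspo1 and Rspo2, and the part of all these markers in the members' values, Axin2 included, was not tested.

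Among 69 other pathway genes tested in brain against kidney tumors, 9 were called, 4 higher and 5 lower, a share of 13.04% beside 8.74% of all genes. The receptors Fzd10 (4.87) and Fzd6 (2.56) and the ligand Wnt3 (6.70, at 0.136 to 7.03 CPM in brain tumors) rose on the log2 scale, as did Dkk3 (1.90). The inhibitor Dkk2 (-3.71), the receptors Ror1 (-2.45) and Lrp5 (-1.45), the ligand Wnt5a (-1.09) and the coactivator Bcl9l (-0.93) fell. The count was 0 with the mouse as a block, and it was 4, 2, 3 and 5 without mouse 1, 2, 3 or 5, in fits that called 2.3%, 1.26%, 4.2% and 5.47% of all genes.

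Between brain and retro-orbital tumors 3 of 10 members did not overlap, where 18.9% of all genes did not, and the choice of members used this contrast. Lgr6 was lower in brain tumors by a fitted log2 difference of -6.63, Rnf43 was lower (-1.08) and Znrf3 higher (1.20). Axin2 overlapped between the sites, at 24.1 to 29.5 CPM against 14.2 to 31.7 CPM. With libraries of a mouse summed, Axin2 lay above every control and non-transformed kidney in tumors of all 3 sites. Before summing it was at 3.98 CPM in 1 kidney tumor library of mouse 2. That was below control mouse 3 and the non-transformed kidney of mouse 4. The tumors behind the eye were those with high Lgr6 and low Znrf3. Rnf43 was at 19.9 CPM or more in them and at 18.8 CPM in the brain tumor of mouse 1.

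In the samples labelled as fetal kidney the members were compared between dysmorphic fetuses with the fusion and controls. Lgr6 and Rspo3 rose and Lgr4 fell. Lgr6 was at 3.72, 1.89 and 1.15 CPM in control fetuses 1, 2 and 3 and at 15.4, 5.98, 15.9, 18.7 and 8.85 CPM in dysmorphic fetuses 1 to 5, and the fitted log2 fold change was 2.51 (SE 0.51, edgeR adjusted p = 0.0461). Rspo3 was at 11.7, 11.3 and 10.4 CPM in controls and at 19.5, 16.0, 19.4, 22.5 and 16.5 CPM in dysmorphic kidneys (log2 fold change 0.73, SE 0.15, edgeR adjusted p = 0.0461). Lgr4 was at 438, 302 and 297 CPM and at 199, 231, 215, 187 and 202 CPM (log2 fold change -0.76, SE 0.14, edgeR adjusted p = 0.0395).

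The groups did not overlap for these 3 members, nor for Lgr5, 4 of 10 where 14.4% of all genes did not overlap. Of the 10 members 3 were called, 2 higher and 1 lower, against 2.67% of all genes, 2.4% higher and 0.269% lower. None of the 3 passed with upper quartile factors, in the joint fit of all groups, with sex as a covariate, or without dysmorphic fetus 1, 3 or 4 or any control fetus. Those 6 fits without 1 fetus called 0 genes of all by edgeR (unadjusted p under 0.05 in 3209 to 4615 genes), and the fit with sex called 5. Over all 8 fits without 1 fetus the log2 difference was 2.21 to 3.05 for Lgr6, 0.66 to 0.77 for Rspo3 and -0.85 to -0.57 for Lgr4. With no filter on low counts Rspo3 was lost (edgeR adjusted p = 0.0733). With the number that begins the titles as a covariate, which splits the fetuses 5 and 3 and whose meaning the labels do not give, Lgr4 alone remained.

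Tissue other than kidney moved with these 3 genes. Of 6 skeletal muscle markers 5 rose in the dysmorphic group, with 1067 to 1323 CPM in sum in controls and 2523 to 5841 CPM in dysmorphic fetuses, as did 2 of 5 fibroblast markers, Col1a1 and Col1a2 (2702 to 3642 CPM in sum in controls, 5005 to 11280 CPM in dysmorphic fetuses). Epidermal keratins summed to 378, 159 and 9.52 CPM in control fetuses 1, 2 and 3 and to 1029, 966, 1130, 2502 and 776 CPM in dysmorphic fetuses 1 to 5, although 0 of 3 passed the test. Of 3 pigment cell markers 1 rose (Dct), with sums of 5.00 to 5.73 CPM in controls and 22.3 to 43.6 CPM in dysmorphic fetuses, and of 3 macrophage markers 1 rose (Adgre1), with 42.4 to 69.7 CPM and 73.1 to 106 CPM. Neither sum overlapped between the groups. Proximal tubule markers summed to 1007, 413 and 70.0 CPM in controls and to 8.33 to 106 CPM in dysmorphic fetuses, and the podocyte gene Podxl fell. The part of these tissues in the 3 calls was not tested. Without control fetus 3, whose Nphs1 and tubule markers were low, the log2 fold changes were 2.21, 0.70 and -0.84 for Lgr6, Rspo3 and Lgr4, and 0 members were called (edgeR adjusted p from 0.0995 to 0.126 for these 3).

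**Figure D4:**
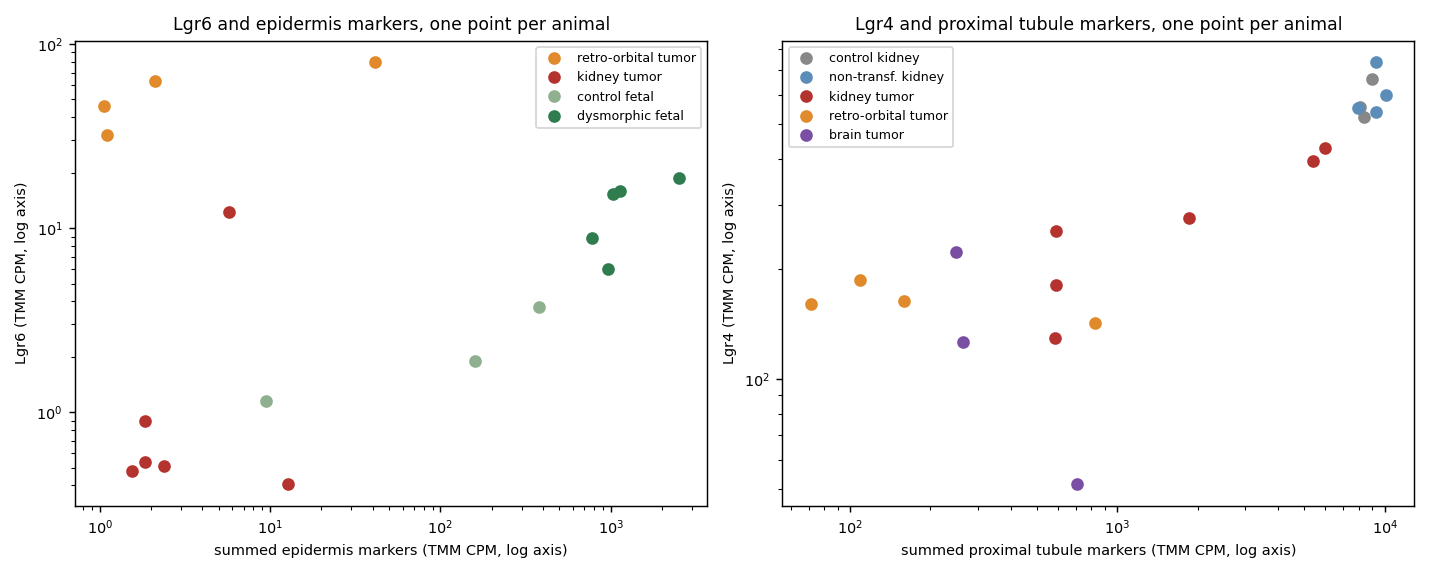
Left, Lgr6 level against the summed level of 3 epidermal keratins, and right, Lgr4 level against the summed level of 4 proximal tubule markers, all in TMM CPM on log axes, 1 point per animal and colored by group. In the left panel the 5 dysmorphic fetuses lay above the 3 control fetuses on both axes and retro-orbital tumors had 31.9 to 80.01 CPM at keratin sums of 1.06 to 41.5 CPM. In the right panel, of adult groups, the kidney tumors with most tubule markers had the highest Lgr4 of the kidney tumors.

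The other 7 members did not pass the test in fetal kidneys. Lgr5 was at 21.1, 21.4 and 23.6 CPM in control and at 31.3, 25.8, 26.4, 32.0 and 26.1 CPM in dysmorphic fetuses, each above at least 5 of the 6 adult kidney tumors, and the fitted log2 fold change was 0.34 (SE 0.13, edgeR adjusted p = 0.200). Axin2 was at 20.6, 11.8 and 25.6 CPM and at 30.3, 17.4, 21.6, 47.0 and 23.7 CPM, which overlapped (log2 fold change 0.51, edgeR adjusted p = 0.493). Nkd1 at 11.6 to 24.0 and 11.1 to 21.8 CPM, Znrf3 at 15.7 to 25.2 and 18.0 to 31.5 CPM, Rnf43 at 5.33 to 12.4 and 3.23 to 8.88 CPM, Rspo1 at 1.51 to 2.87 and 0.542 to 2.31 CPM, and Rspo2 at 0.0328 to 1.22 and 1.14 to 5.39 CPM overlapped between control and dysmorphic fetuses. Of 72 other pathway genes tested 3 rose and 0 fell (4.17% called, beside 2.67% of all genes): Sfrp4, a secreted inhibitor (1.86), Tnfrsf19 (1.75) and Cd44 (2.25). Sex as a covariate or leaving out dysmorphic fetus 1, 3 or 4 or any control fetus gave 0, in fits that called 5 or fewer genes of all.

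Whether the fusion effect differed between models was tested as the difference of the adult effect (kidney tumors against control kidneys) and the fetal effect. None of the 10 members differed by edgeR, where 8.94% of all genes did, and 3 had an unadjusted p under 0.05. The difference was 1.04 for Axin2 (SE 0.47, edgeR adjusted p = 0.184), 1.79 for Lgr5 (SE 0.77, edgeR adjusted p = 0.159) and 0.36 for Lgr6 (SE 1.43, edgeR adjusted p = 0.909). For Znrf3 it was -0.78 (SE 0.26, edgeR adjusted p = 0.0778), with 0.0217 without control fetus 1 and 0.0397 without dysmorphic fetus 5. For Lgr5 it was 0.0223 without mouse 5. With standard errors of this size, a difference in Lgr6 of several fold in either direction could not have been seen.

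The genes whose levels followed a member most closely over the 28 samples were listed by Pearson's r of log2(CPM + 1) among 14827 genes, as a description in which samples of the same mouse and group are not independent. Among those nearest to Lgr6 were Twist1 (0.91), Scara3 (0.90), Bcl6b (0.90) and Vash1 (0.89). Those nearest to Axin2 were Traip (0.94), Tuba1a (0.93), Asf1b (0.93), Tcf19 (0.92) and Stmn1 (0.92). Those nearest to Lgr5 were Smpx (0.90), Prrg1 (0.90), Mum1l1 (0.89), Mybpc2 (0.89) and Rnf217 (0.89), of which Smpx and Mybpc2 are genes of striated muscle, a tissue that was abundant in the fetal samples.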

How the data were processed

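RNA was measured in 36 libraries. Per the labels, RNA of fixed tissue was made into stranded total RNA libraries without depletion of ribosomal RNA, and the submitters' processing notes name FastQC, MultiQC, Bowtie2 and STAR 2.5.2a and the build GRCm38 (mm10). The authors deposited whole-number counts per gene, not normalized, in 2 tables. The counting tool and annotation were not given in the sources used here. Between 79.04% and 84.33% of the counts from 1 to 20 in a library were even, so both mates of a pair may have been counted, and halved counts were an alternative. Counts were summed over libraries of the same animal and group. Gene symbols and exon lengths came from GENCODE M21 (53274 of 53379 IDs matched without their version), and promoters from RefSeq GRCm38.p6.

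Each comparison was fitted on its own samples with edgeR 4.0.16 (R 4.3.3, limma 3.58.1) by the quasi-likelihood test, with TMM factors, filterByExpr and Benjamini-Hochberg adjustment over all genes, and genes were called at an adjusted p under 0.05. Alternatives were RLE and upper quartile factors, DESeq2 1.42.0, no filter on low counts, halved counts, every library as its own sample, a joint fit of all groups, sex (read from Y-linked transcripts) or the title number as a covariate, the mouse as a block, and leaving out each animal. By Y-linked transcripts 0 of 3 control mice were male, against 2 of 6 with kidney tumors and 2 of 4 with non-transformed kidney. Males were 1 of 4 with retro-orbital and 1 of 3 with brain tumors, and 3 of 5 dysmorphic and 1 of 3 control fetuses. Sex was a covariate only for kidney tumors against control kidneys and in the fetal comparison. The test of the difference between models, its alternatives and the levels rescaled or without 1 animal were added after the data were seen. The mouse numbers in the titles pair the tissues. Deviations from the group means correlated at -0.054 to 0.136 between kidney tumors and non-transformed kidneys (4 pairs), at -0.157 to 0.073 between brain and kidney tumors (3 pairs) and at 0.199 to 0.330 between retro-orbital and kidney tumors (4 pairs).

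The members, gene lists and markers were chosen with earlier results of these data known, and all 10 members are named by rule, with every pathway list given by its counts. No per-sample column was left out. On simulated data with 200 genes changed by a log2 fold of 2, edgeR recovered 33.5% in kidney tumors against control kidneys (23066 genes), 17% in brain against kidney tumors (22792 genes) and 43.5% in the fetal comparison (22135 genes). A gene near Lgr6 in level and a podocyte marker are not reported here.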

Additional observations from a re-analysis of the deposited data

Results flagged for a closer look

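Each member's level was examined for a sample far from the others in the groups of 4 to 6 animals, 40 sets of values, of which chance would flag about 2. The values marked were those of 2 kidney tumor samples. Lgr6 was at 12.2 CPM in the kidney tumor of mouse 5, and the next highest kidney tumor was at 0.894 CPM. The same mouse had the highest Lgr6 among retro-orbital tumors, 80.01 CPM. Rspo2 was at 0.158 CPM in the kidney tumor of mouse 2, against 0.0588 CPM in the next, and mouse 2 also had the highest Rspo2 among brain tumors (1.18 CPM) and among retro-orbital tumors (0.189 CPM). The cause was not tested for either.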

How the results depend on the processing

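Depth limited Rspo2 in adult tissue, which had 4 counts over the control kidneys. Percentages are the share of all genes called in the same fit. The members called in kidney tumors against control kidneys numbered 1 (19%), and 2 with RLE factors (19.2%), 3 with upper quartile factors (19.4%), halved counts (21.4%) or sex as a covariate (25.9%), 4 with DESeq2 (30%) or in the joint fit (21.5%), 5 with every library as its own sample (44.7%), which treats tumors of the same mouse as independent, and 0 to 3 without 1 animal (4.78% to 25.1%). Against non-transformed kidneys the count of 2 (17.1%) became 5 with DESeq2 (27.4%), 3 with every library as its own sample (23.2%), 4 in the joint fit (19.3%), 0 with the replicate block of the mouse (4.12%) and 0 to 2 without 1 animal (5.59% to 17%). In brain against kidney tumors the count of 1 (8.74%) became 3 with DESeq2 (21.8%), 2 with every library as its own sample (18.2%), 4 in the joint fit (26%), 0 with the replicate block (0%) and 0 to 1 without 1 animal (1.26% to 6.36%). In fetal kidneys the count of 3 (2.67%) became 0 with upper quartile factors (2.68%), in the joint fit (1.08%) or with sex as a covariate (0.022%), 1 with the title number as a covariate (1.8%), 2 with no filter on low counts (1.47%) and 0 to 3 without 1 animal (0% to 5.58%). The difference between models called 0 to 1 without 1 animal (3.79% to 11.7%). The block changed no other call among members. With every library on its own and in the joint fit more samples set the spread, and elsewhere the cause was not tested.

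The sign of members that passed no test turned under some settings. In kidney tumors against control kidneys Nkd1 was -0.58 on the log2 scale with sex as a covariate and -0.21 to 0.45 without 1 animal. Against non-transformed kidneys Nkd1 was -0.0037 with RLE factors, -0.0036 with DESeq2, -0.19 with every library as its own sample and -0.42 to 0.20 without 1 mouse, Rnf43 was -0.00038 with every library as its own sample and -0.20 to 0.30 without 1 mouse, and Rspo1 was -0.25 to 0.86 without 1 mouse. In brain against kidney tumors Rspo1 was -1.26 with the replicate block, and without 1 mouse Rspo1 was -0.49 to 1.35, Rspo3 -0.027 to 0.98, Znrf3 -0.21 to 0.52, Rnf43 -0.13 to 0.91 and Lgr6 -3.20 to 0.035. In fetal kidneys Rnf43 was -0.67 to 0.052 without 1 fetus. The difference between models for Lgr6 was -1.71 to 1.31 without 1 animal. The 3 members with their highest mean level in a tumor group numbered 3 with RLE and with upper quartile factors and 2 to 4 without 1 animal.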
